A study of Solanum lycopersicum with 24 samples.

Results

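Lipoxygenases oxidise fatty acids, alcohol dehydrogenase and alcohol acyl transferase make fruit volatiles, and deoxyxylulose phosphate synthase and phytoene synthase make carotenoid precursors. The N1-methyladenosine (m1A) peaks of 6 such tomato genes are described here. The genes were chosen by locus identifier: LOXA (Solyc08g014000), LOXB (Solyc01g099190), ADH2 (Solyc06g059740), AAT2 (Solyc03g025320), PSY1 (Solyc03g031860) and DXS1 (Solyc01g067890). All 6 had at least 1 peak in the deposited mRNA lists, out of 1945 genes with a peak. They were chosen with earlier results of these data known, so this count is a description and not a finding. Together they held 12 of 3852 peaks. The lists themselves name 3 of the genes (LOXA, which they call LOX1.1, AAT2 and PSY1). LOXB, ADH2 and DXS1 have no description there, and their names are those of the locus list by which they were chosen.

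m1A is an adenosine methylated at the nitrogen that takes part in base pairing, and it was mapped by immunoprecipitation (IP) of fragmented total RNA with an m1A antibody and sequencing. The 12 IP libraries came from fruit of the tomato variety Ailsa Craig (AC), the wild type, and of Never-ripe (Nr), which is homozygous for a mutant ethylene receptor in the AC background. AC was taken at mature green (AC MG, approximately 39 days after anthesis) and red ripe (AC Br+6, 6 days after breaker, the first colour change). The Nr titles give only the letters G and O. They were read here as the green stage, taken as the same 39 days as AC MG, and the 6-day stage, when the mutant fruit was orange. Each of the 4 groups had 3 biological replicates, no treatment is named in the labels, and the part of the fruit is not given.

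In ripening tomato, lipoxygenases add oxygen to linoleic and linolenic acid, and the hydroperoxides of some of them are cleaved to volatile aldehydes. Alcohol dehydrogenase reduces the aldehydes to alcohols, and alcohol acyl transferase joins alcohols to acyl groups to give esters. In the plastid, deoxyxylulose phosphate synthase starts the pathway to the isoprenoid building blocks, and phytoene synthase joins a pair of geranylgeranyl diphosphate molecules into phytoene, the first carotenoid on the way to lycopene. Ethylene drives much of this in climacteric fruit, and Never-ripe fruit perceives it poorly.

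The mRNA lists ran from 108 to 854 peaks per library, with a median of 234.5. AC Br+6 replicate 3 (854 peaks) and AC MG replicate 1 (688 peaks) had by far the longest lists, and the 3 Nr O libraries had the shortest, from 108 to 151. Sequencing depth is unknown. Of fruit genes used as markers, ASR1 had a peak in 12 libraries, 2A11 in 9, E8 in 4 and PG2A in 3, and no listed gene was described as a seed storage or late embryogenesis protein. Among green tissue markers, 2 chlorophyll a-b binding genes had peaks in 2 libraries, and 1 ribulose bisphosphate carboxylase small subunit gene had a peak in 1. A peak list gives no transcript level, so the lack of a peak cannot be told apart from too little RNA of that gene, whether from fewer cells or from less RNA per cell. Fold enrichments are the ratios that the authors' peak caller gave. The highest value in the lists is 50, shared by 351 peaks (9.11%), so peaks at 50 have no order among themselves. The score is 10 times the negative log10 of the peak's p-value, and 1133 peaks share a score of 3100.

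Across the 12 libraries, the 6 genes were called in few (a gene is called in a library if its list holds at least 1 peak in it). LOXA, ADH2 and DXS1 each had a peak in 1 library, LOXB and PSY1 in 2, and AAT2 in 3. Such calls were usual here, since 1471 genes (75.6%) were called in 1 library, 257 (13.2%) in 2 and 59 (3.03%) in 3. AC MG held 5 of the 10 calls of these genes, AC Br+6 held 3, and Nr G and Nr O held 1 each. Over all genes, AC MG held 31.5% of the 3493 calls, AC Br+6 held 32.0%, Nr G held 25.9% and Nr O held 10.5%. With 10 calls no difference between groups can be read from the members' split. By library, there were 2 calls in AC MG replicate 1 (AAT2, LOXB), 2 in AC MG replicate 2 (AAT2, LOXA) and 1 in AC MG replicate 3 (PSY1). AC Br+6 replicate 1 had 1 call (ADH2), replicate 2 had 0, and replicate 3 had 2 (LOXB, PSY1). Nr G replicate 3 (DXS1) and Nr O replicate 3 (AAT2) had 1 call each, and the other 4 Nr libraries had 0. No gene of the set was called in all 3 libraries of a group.

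**Figure D1:**
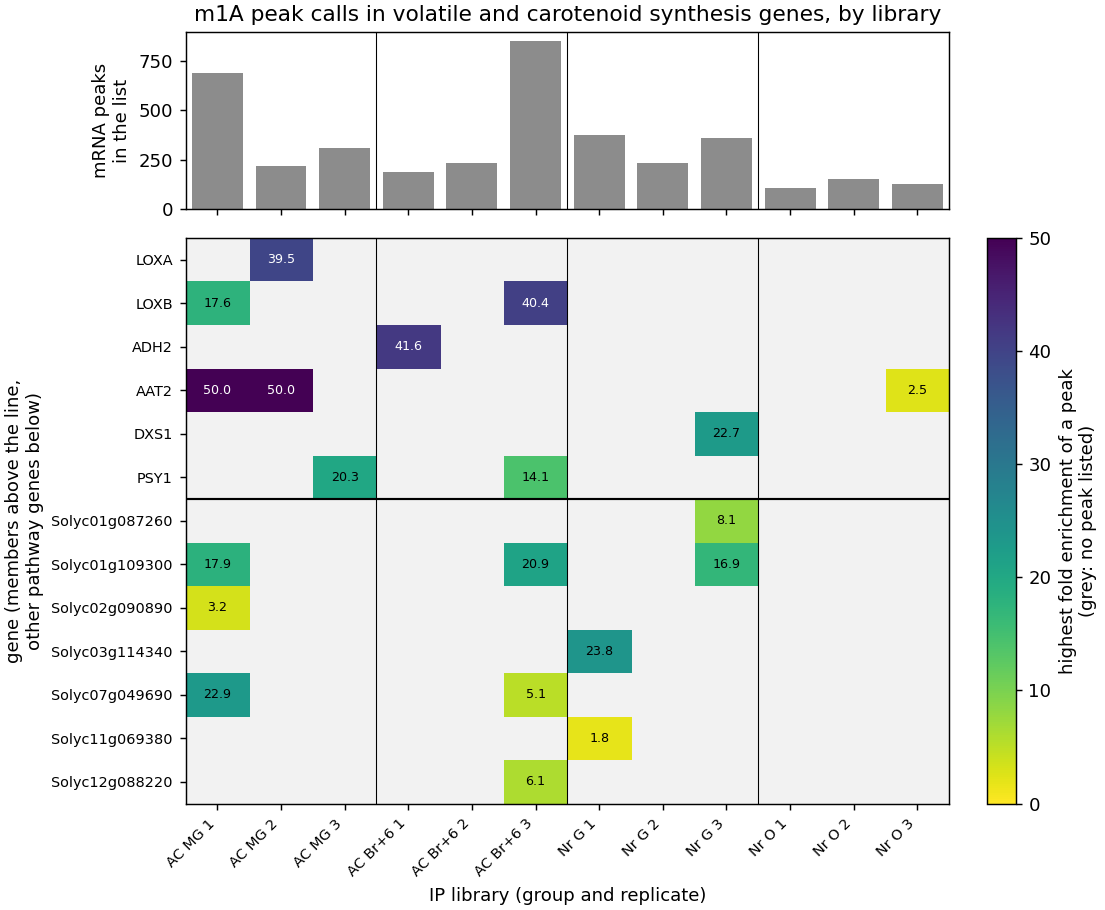
Calls by library: columns are the 12 IP libraries in their 4 groups, rows are the 6 genes (above the line) and 7 other genes of the same pathways with a peak (below it), and each coloured cell gives the highest fold enrichment of the gene's peaks in that library. Bars give the number of mRNA peaks in each list. Most coloured cells stand in AC libraries, which held 63.6% of the calls of all genes. Many stand in AC MG replicate 1 and AC Br+6 replicate 3, the libraries with the longest lists, which held 38.5% of all calls.

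LOXA encodes a lipoxygenase that the lists describe as linoleate 9S-lipoxygenase A, a name for the enzymes that oxidise linoleic acid at another carbon than the lipoxygenases that feed hydroperoxide lyase. It had 1 peak, in AC MG replicate 2, on chromosome 8 from 3512998 to 3513101. (All coordinates are on the SL3.00 tomato build, which a scaffold name in the deposited lists points to, and are counted from 1.) The peak was 104 bases long, against a list median of 194.5, and its fold enrichment was 39.48, against a list median of 19.82. It ranked 66 of 220 by fold enrichment. The other 11 libraries listed no peak in LOXA.

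LOXB, the other lipoxygenase gene, had 3 peaks in 2 libraries, all on chromosome 1. AC MG replicate 1 listed a peak from 89370975 to 89371178 with a fold enrichment of 17.63 and a rank of 291 of 688. AC Br+6 replicate 3 listed one from 89370528 to 89370869, with a fold enrichment of 40.43 and a rank of 113 of 854, and a longer one of 739 bases from 89368523 to 89369261, with a fold enrichment of 6.57. The last lay below its list median of 11.89. The green and red peaks did not overlap: the nearest were 105 bases apart. The stronger red peak and the green peak were thus neighbouring intervals, and 2 libraries called the gene without an overlapping interval. Whether the 2 intervals come from the same methylated stretch cannot be told from the lists.

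LOXB was called in the 2 libraries with the longest lists and in no other. Of the 257 genes called in exactly 2 libraries, 48 (18.7%) had this same pair, the most of any pair of libraries. Its calling libraries were thus identical to those of 47 other genes (Jaccard index 1 over 12 libraries), among them Solyc01g095410, an RNA-binding domain protein gene, Solyc01g095430, which encodes a thylakoid curvature protein, and Solyc01g096290, a gene for a ubiquitin and ribosomal protein fusion. The part of list length in the LOXB calls was not tested further.

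ADH2, the alcohol dehydrogenase gene of the set, had 1 peak, in AC Br+6 replicate 1, on chromosome 6 from 37723776 to 37723873. At 98 bases it was the shortest peak of the 12, whose lengths ran to 739. Its fold enrichment was 41.61, against a list median of 19.39, and it ranked 51 of 188. AC Br+6 replicate 1 had the shortest list of the AC libraries, and the other 11 libraries listed no peak in ADH2.

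AAT2, an alcohol acyl transferase gene, was the member called most often and the strongest. AC MG replicate 1 listed a peak on chromosome 3 from 2786901 to 2787288 with a fold enrichment of 50, and AC MG replicate 2 listed one from 2786895 to 2787248, also at 50. Both scores were 3100. In those lists 62 of 688 and 37 of 220 peaks were at 50. AC MG replicate 3, all 3 AC Br+6 libraries and all 3 Nr G libraries listed no peak in the gene.

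The single Nr call of AAT2 was of another kind in strength but not in place. Nr O replicate 3 listed a peak from 2786971 to 2787288 with a fold enrichment of 2.51, against a list median of 14.86, and a rank of 116 of 129. Its score was 14.55, a peak p-value of 0.0351 as the peak caller gave it, and no peak of that list scored lower. The 3 AAT2 peaks overlapped one another: the Nr O peak lay wholly inside that of AC MG replicate 1 and ended at the same base, and the 2 AC MG peaks shared 348 bases, which was 89.7% of one and 98.3% of the other. A stretch of 278 bases, from 2786971 to 2787248, was thus called in each of the 3 libraries, and the 3 peaks together spanned 394 bases. Fold enrichments were not tested between libraries.

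**Figure D2:**
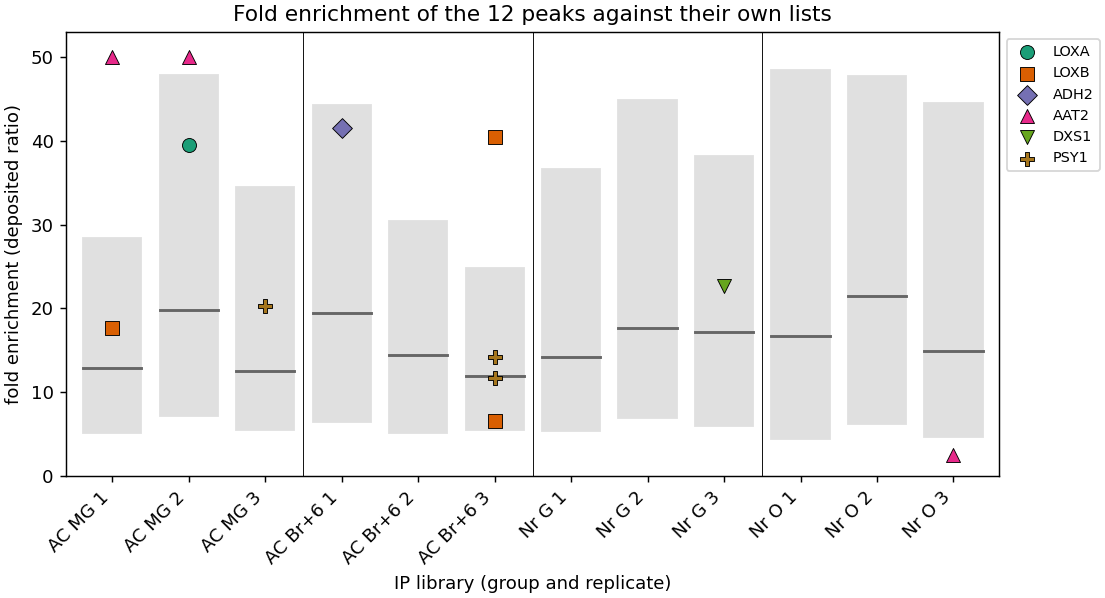
Fold enrichment (deposited ratio, linear axis) of each of the 12 peaks in its own library; grey boxes span the 25th to 75th percentile of all mRNA peaks of that list and the grey line is their median. AAT2 stands at 50 in 2 AC MG libraries and at 2.51 in 1 Nr O library, and 9 of the 12 peaks lie above their list's median.

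DXS1, the gene for the entry enzyme of the plastid isoprenoid pathway, was the 1 member called only in Nr. Its peak in Nr G replicate 3 lay on chromosome 1 from 76683070 to 76683267, 198 bases long. The fold enrichment was 22.7, against a list median of 17.19, and the rank was 148 of 360. No AC library listed a peak in DXS1.

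PSY1, the fruit phytoene synthase gene, was called in AC MG replicate 3 and AC Br+6 replicate 3 and in 0 of 6 Nr libraries. Both libraries listed a peak on chromosome 3 from 4352127 to 4352782, with the same start and end. Its fold enrichment was 20.3 in the green library, against a list median of 12.55, and 14.12 in the red library, against 11.89. At 656 bases it was over the median length of its lists (216 and 214). The red library also listed a second PSY1 peak, from 4355499 to 4355875, with a fold enrichment of 11.67, just under its list median. The second peak lay 2716 bases from the first and had no counterpart in the green library.

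Which members share a peak position between libraries can be set beside the other genes. AAT2 and PSY1 had peaks that overlapped between libraries by at least 1 base and LOXB did not. Of all 257 genes called in 2 libraries, 132 (51.4%) had such an overlap and 21 (8.17%) had an identical interval in both, as PSY1 did. Of the 59 genes called in 3 libraries, 50 (84.7%) had an overlap, as AAT2 did. Where these peaks lie in exons or untranslated regions was not analysed here. No other mRNA peak, and no lncRNA or circRNA peak, lay within 10 kb of the span of any member's peaks.

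**Figure D3:**
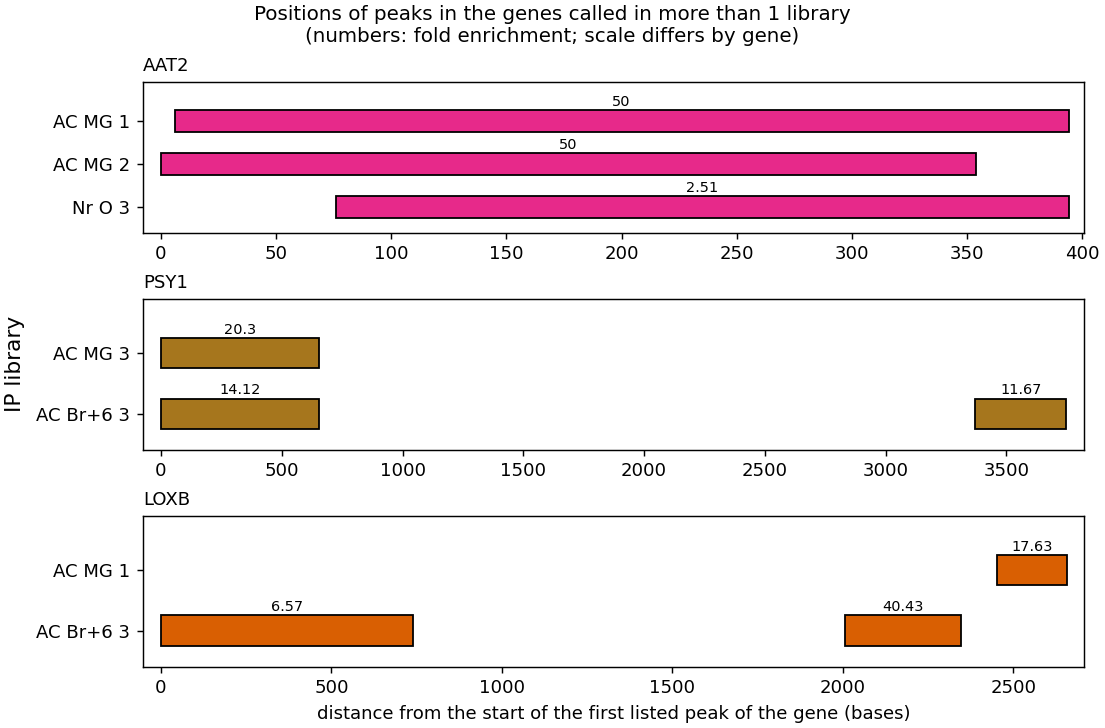
Positions of the peaks of AAT2, PSY1 and LOXB, as distance in bases from the start of the gene's first listed peak, with 1 line per library and the fold enrichment over each bar; the scale differs by gene. AAT2 peaks share 1 stretch in 3 libraries, PSY1 has an identical peak in 2 libraries, and the LOXB peaks of the 2 libraries do not overlap.

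By strength, the 12 peaks ran from 2.51 to 50, with a median fold enrichment of 21.5, against 14.4 over all 3852 peaks. Of the 12, 9 lay above the median of their own list. The exceptions were the weaker LOXB peak, the second PSY1 peak and the Nr O peak of AAT2. Several of the 12 share a gene or a library, and the genes were chosen with earlier results known. These values describe the set and were not tested. Genes called in all 12 libraries had a median peak fold enrichment of 32.36, and genes called in 1 library had 11.66. The strong single calls of LOXA (39.48) and ADH2 (41.61) show that a peak well above its list's median was listed in 1 replicate and in neither of the other 2 of its group.

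The genotypes were compared to see whether these transcripts carry peaks in the wild type and not in the ethylene receptor mutant. LOXA, LOXB, ADH2 and PSY1 were called in at least 1 AC library and in 0 of 6 Nr libraries, which was so for 4 of 6 members and for 61.4% of all genes. DXS1 alone was called in Nr and in 0 of 6 AC libraries, against 22.9% of all genes. AAT2 alone was called in both, against 15.7%. AC libraries held 8 of the 10 calls of the members (80%) and 2221 of all 3493 calls (63.6%). The share of members called in AC alone is near the background, so it is not a result about these genes.

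**Figure D4:**
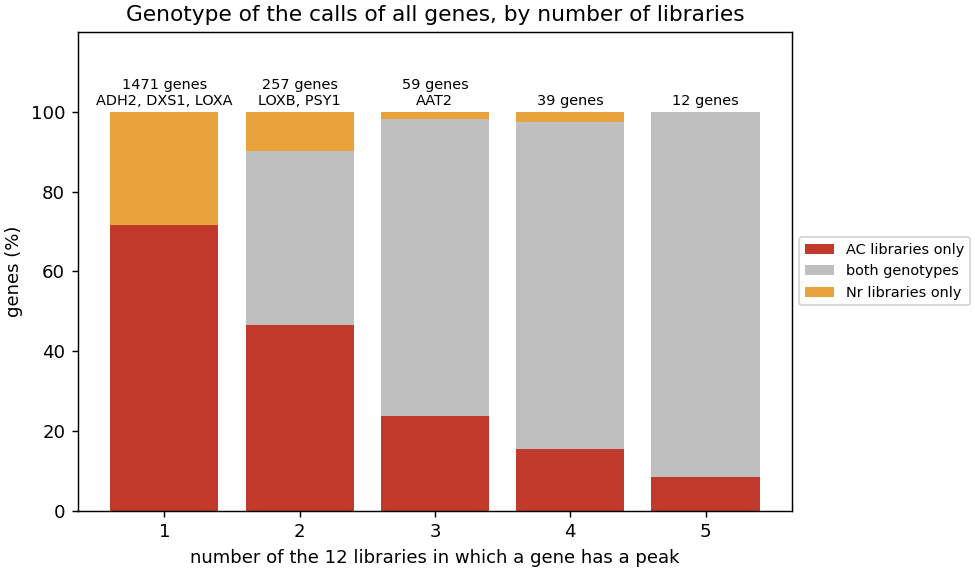
Percent of all genes called in AC libraries only, in both genotypes or in Nr libraries only (vertical axis), by the number of libraries that called the gene (horizontal axis, 1 to 5 libraries); the number of genes and the members among them stand over each bar. Among genes called in 1 library 71.6% were called in AC, and among genes called in 2 libraries 46.7% were called in AC only, the classes of LOXA, ADH2 and DXS1 and of LOXB and PSY1.

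AAT2 was the 1 member called often enough to test (genes called in 3 to 9 of 12 libraries). Of its 3 calls, 2 fell among the 6 AC and 1 among the 6 Nr libraries (Fisher exact test, two-sided, p 1 before and 1 after adjustment over 140 genes). After adjustment this Fisher exact test passed 0 of the 140 genes (0%) for genotype; 1 gene, not a member, had an unadjusted p under 0.05. With genes called in 2 libraries included, LOXB and PSY1, each with 2 calls among the 6 AC libraries and 0 in Nr, gave p 0.455 by the same two-sided Fisher exact test (1 when adjusted over 404 genes). These tests cannot show a difference for genes called so rarely, nor do they show that there is none. A gene called in all 6 AC and 0 Nr libraries could not by itself pass the adjustment over 140 genes. The p-values cover the spread between these libraries.

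The stages were compared next. LOXA and DXS1 were called in green libraries only, which held for 2 of 6 members against 49.6% of all genes. ADH2 was called in a late library only, against 32.6% of all genes. AAT2, LOXB and PSY1 were called at both stages, against 17.8%, and these are the 3 members called in more than 1 library. AAT2 had 2 calls among the 6 green libraries and 1 among the 6 late ones (Fisher exact test, two-sided, p 1 before and 1 after adjustment over 140 genes). For stage the Fisher exact test passed 0 of the 140 genes (0%) after adjustment, and 0 had an unadjusted p under 0.05. Here too no gene could pass the adjustment by itself, however its calls were split.

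Within the wild type, AAT2 was called in 2 of the 3 green libraries and in 0 of the 3 red ripe ones. This was 1 of the 5 members called in either group, against 1.87% of the 1500 genes called there. No member met the reverse rule (at least 2 of 3 AC Br+6 and 0 of 3 AC MG), which 1.33% did. The 1 call rests on AC MG replicates 1 and 2: without either, when the group had to show 2 of 2 calls, the count of members was 0. AAT2 was itself put in the set with these calls known, so the count is a description.

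Green Nr fruit had no AAT2 peak either, so the same rule was met between the green groups (2 of 3 AC MG libraries against 0 of 3), by 1 of 5 members against 3.2% of 1311 genes. This comparison shares its AC MG libraries with the one before. Without AC MG replicate 1 or 2 the count was 0 here too. No member met the reverse rule, which 1.83% of genes did.

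Between Nr O and Nr G no member met the rule in either direction, where 7.06% of 751 genes were so called in Nr G and 0.666% in Nr O. DXS1 and AAT2, the members called in Nr, each had 1 call. Between the late groups no member differed by this rule either, where 4.18% of 981 genes were called so in AC Br+6 and 0.204% in Nr O. LOXB, PSY1 and ADH2 each had a peak in 1 red AC library and in 0 orange Nr libraries, and AAT2 the reverse. Over all genes, AC Br+6 held 1119 calls and Nr O held 366. The share of all genes split in this looser way was not counted, so the split is not a result about the members. A single comparison of 3 against 3 libraries has a smallest two-sided exact permutation p of 0.1.

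The calls of AAT2 and PSY1 were then matched with those of all other genes. No gene had the same 3 calling libraries as AAT2. The highest Jaccard index was 0.667, for 8 genes, among them Solyc01g111520 (a synaptotagmin gene), Solyc02g089640 (a cellulose synthase-like gene) and Solyc09g066440 (a casein kinase gene), each sharing 2 libraries with it. PSY1 had the same calling libraries as 9 other genes (index 1), among them Solyc01g097760 (a ribosomal protein gene), Solyc05g014470 (glyceraldehyde phosphate dehydrogenase) and Solyc08g061100 (cellulose synthase). These indices rest on 2 or 3 libraries per gene.

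Of 42 other genes of the same pathways, taken from a list of identifiers, 7 (16.7%) had a peak in any library and none is a member. In volatile synthesis these were 2 of 15. HPL (Solyc07g049690), whose hydroperoxide lyase cleaves products of some lipoxygenases to aldehydes, was called in AC MG replicate 1 at a fold enrichment of 22.91 and in AC Br+6 replicate 3 at 5.14, the same pair of libraries as LOXB. Unlike those of LOXB, its 2 peaks began at the same base of chromosome 7, 60173653, and ended at 60173953 and 60174273. Solyc12g088220, a branched-chain amino acid aminotransferase gene, was called in AC Br+6 replicate 3 at 6.06.

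In carotenoid and plastid isoprenoid synthesis, 5 of 27 other genes had a peak. Solyc01g109300, which the lists describe as an IspH protein, the last enzyme of the pathway that DXS1 starts, was called in AC MG replicate 1 (fold enrichment 17.91), AC Br+6 replicate 3 (20.92) and Nr G replicate 3 (16.87). Its 3 peaks lay on chromosome 1 between 96202813 and 96203237 and began at bases 96202817, 96202816 and 96202813, in the same order. Nr G replicate 3 is also the library that called DXS1.

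The reductoisomerase gene Solyc03g114340, the step after DXS1, had a peak of 25 bases in Nr G replicate 1 at a fold enrichment of 23.83. Solyc11g069380, described as GcpE, an enzyme of the same pathway, had one in that library at 1.78. Solyc01g087260 and Solyc02g090890, which have no description in the lists, were called in Nr G replicate 3 (8.11 and 4.38, 2 peaks) and AC MG replicate 1 (3.19). Of the 7 genes, 3 were called in AC only, 3 in Nr G only and 1 in both. Of their 10 calls, 6 were in AC MG replicate 1 and AC Br+6 replicate 3, the libraries with the longest lists, and 0 in Nr O. Over all genes, those 2 libraries held 38.5% of the calls and Nr O held 10.5%, so with 10 calls a 0 in Nr O is not far from the background.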

How the data were processed

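The 36 deposited lists (12 each for mRNA, lncRNA and circRNA) hold m1A peaks of 12 IP libraries; the 12 input libraries were not used. Per the labels' protocols, alkali turned m1A into m6A in both IP and input RNA before library construction. Tools named in the submitters' processing notes are HISAT2 (2.0.4) and cutadapt (1.9.3); peak names begin with MACS, and how peaks were called, and against what control, is not given in the sources used here. Fold enrichment was deposited as a ratio, the deposited score is 10 times the negative log10 p per the file headers, and the deposited FDR percent is 100 for every peak. Lists were matched to libraries by genotype, stage and replicate in their names. Starts were counted from 1 and genes taken from transcript identifiers.

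Genes called in 3 to 9 libraries were tested with two-sided Fisher exact tests (SciPy 1.17.1), adjusted by Benjamini-Hochberg over all genes tested. The test was checked on simulated calls, in which many changed genes had a peak in every AC and in no Nr library. No gene in the data was split so, and the check does not show what the test can find among genes called as rarely as the members. Genes named were the 6 members, every listed pathway gene with a peak, and for members in at least 2 libraries at most 3 genes with the most alike calls, those with a description first. Members and lists were chosen with earlier results of these data known. Same-numbered libraries did not deviate together (correlations -0.137 to 0.123, 1 of 12 over 0.1), so replicate numbers were not used as a block.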

Additional observations from a re-analysis of the deposited data

How the results depend on the processing

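Of 182 values under alternatives, 169 kept their count within 1.5 times or their side of the threshold. Many of these were group counts of 0 that could not change. No member had 2 calls in AC Br+6, Nr G or Nr O, and no alternative added a call to a member. The 169 is therefore not a measure of stability. Both Fisher tests called 0 genes under every alternative run and with any library left out (0 to 0). The exact permutation within replicate numbers (replicate block) also called 0 genes for genotype and 0 for stage. In none of these runs could a gene pass the adjustment by itself, however its calls were split. The counts of 0 were therefore close to fixed in advance and do not measure stability. AAT2 could not be tested where it was left with under 3 calls. Members called in AC numbered 5, and 3 with lists cut to the shortest length of 108 peaks (AAT2, ADH2, LOXA). The cut was by score, with ties ordered by fold enrichment. The stronger LOXB peak of AC Br+6 replicate 3 (fold enrichment 40.43) had the widely shared score of 3100 and was lost through that order. Leaving out 1 library gave 4 to 5 members. Members called in Nr numbered 2, but 1 with peaks at or above the list median fold enrichment and 0 with equal lists. They numbered 1 with scores of at least 50 (chosen after seeing the data), and 1 to 2 with a library left out. These counts were not taken over all genes under the alternatives, so no difference between genotypes can be read from them. The AAT2 call in AC MG against AC Br+6 and against Nr G fell from 1 member to 0 without the 2 longest lists, since AC MG then keeps 1 AAT2 library; leaving out 1 library gave 0 to 1 in each. Members with a shared position numbered 2, also at 50% reciprocal overlap, and 1 (PSY1) when start and end had to be the same. The unknown depth limits what an absent peak can show.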

Other observations

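Genes described in the lists as geranylgeranyl enzymes are given here because such enzymes can feed or compete with phytoene synthase. That description was searched for after the peaks were seen, and what the genes encode was not checked further. Solyc09g008920 on chromosome 9 is described there as a geranylgeranyl diphosphate synthase. It had a peak from 2306517 to 2306747 in AC Br+6 replicate 1 at a fold enrichment of 50. In Nr G replicate 3 it had one from 2306813 to 2307090 at 8.11. Solyc03g115980, a chloroplastic geranylgeranyl diphosphate reductase gene on chromosome 3, had a peak from 67020176 to 67020345 in AC MG replicate 2 at 50 and one from 67021059 to 67021280 in Nr O replicate 2 at 31.25. Each gene was called in 1 AC and 1 Nr library, and in neither gene did the peaks of the 2 libraries overlap. Both traits were common. Of all 257 genes called in 2 libraries, 46.7% were called in AC only, 9.73% in Nr only and the rest in both. Peaks overlapped between the libraries in 51.4% of the 257. The genes GGPS1, GGPS2 and GGPS3 of the pathway list (Solyc11g011240, Solyc04g079960 and Solyc02g085700) had no listed peak in any library.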
